A study of Danio rerio with 6 samples.

Results

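The genes described here are the most abundant transcripts of wild-type zebrafish (Danio rerio) pre-vitellogenic ovarian follicles, the small follicles that have not yet begun to take up yolk. They were chosen from the deposited count table by level. Counts were scaled to CPM (the reads of a gene per 1000000 reads counted in its library), the 200 genes with the highest mean CPM in the 3 wild-type libraries were taken, and genes whose mutant mean was at least 2 times or at most 0.5 times the wild-type mean were left out. Of 32057 genes in the table, 198 remained. The ratio limit removed 2 of the 200. They were MFAP4 (ENSDARG00000116066), which had a mutant to wild-type ratio of 3.59, and si:ch211-199m8.2, with 0.472. A further 7 genes set aside by name, for the germ cell proteins DDX4, DAZL and PIWIL1, the transcription factors nanog and pou5f3 and the yolk precursors vtg1 and vtg2, all ranked below 200, the highest being nanog at rank 238.

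The study compared follicles of AB-strain fish with 2 copies of the intact ybx1 gene (ybx1+/+, 3 libraries) and of AB-strain fish homozygous for a ybx1 mutation (ybx1-/-, 3 libraries). Its title poses the question of how Ybx1, a cold-shock-domain protein that binds RNA and DNA, holds back the activation and early growth of follicles through Cdkn1a, a cell cycle inhibitor. The labels give no age, no description of the mutant allele, and no statement of whether a library holds follicles of 1 fish or of several. Libraries were made from total RNA, extracted with TRIzol, with a directional kit.

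A growing fish oocyte transcribes and stores RNA for the egg and for the first divisions of the embryo, which run before the embryo's own genome is read. Much of this RNA is held untranslated by RNA-binding proteins until meiosis resumes. In teleosts the oocyte also makes proteins of the egg envelope, the layer of zona pellucida (ZP) proteins that surrounds it, and follicle cells encase the oocyte.

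Total counts ran from 16600019 to 29511217 in 5 libraries and reached 37764782 in mutant library 3. For the oocyte, 10 markers were fixed for the purpose, all of them read in every library. They summed to 7732 to 8446 CPM in wild type and 8089 to 8433 CPM in the mutant, and 6 of them (zp3b, zp2.1, org, buc, h1m and ZAR1) are among the 198. These 6 give most of the sum, and the choice of genes bounded their level and ratio, so the sums do not check the oocyte label. Of the rest, GDF9 was lower in every mutant library (65.7 to 60.1 CPM on average), and BTG4, bmp15 and figla overlapped. Markers of granulosa and other follicle cells summed to 178 to 191 CPM in wild type and 244 to 254 CPM in the mutant (10 of 14 symbols matched), and those of vessels to 20.5 to 25.8 and 36.5 to 45.5 CPM (3 of 5 matched). Theca and stroma markers summed to 445 to 477 and 481 to 504 CPM, and immune markers to 23.0 to 24.4 and 27.2 to 30.3 CPM. In all 4 lists every mutant sum was above every wild-type one, but not every marker was. Of the genes matched, 5 of 10 for follicle cells, 5 of 10 for theca and stroma, 3 of 6 for immune cells and 3 of 3 for vessels were higher in every mutant library, while amh (5.01 to 3.97 CPM on average), CYP11A1 (ENSDARG00000002347, 256 to 224 CPM) and cd74a (9.24 to 7.20 CPM) were lower in every mutant library. The sums of blood markers overlapped, at 5.5 to 14.3 and 6.92 to 7.90 CPM (4 of 7 symbols matched), with hbae1.1 at 0 in every library. Among them hbaa2 was lower in every mutant library (0.784 to 0.187 CPM on average), and hbaa1 and alas2 overlapped. Liver markers, which varied with the library (22.9, 32.1 and 2.76 CPM in wild type and 16.3, 2.39 and 1.62 CPM in the mutant), overlapped. None of these somatic markers is among the 198 genes, and the part that somatic cells play in the values below was not tested. In such bulk samples, fewer cells of a type and less RNA per cell cannot be told apart.

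The mutated gene itself was still read. YBX1 had 276, 264 and 298 CPM in wild-type libraries 1, 2 and 3 and 252, 241 and 229.7 CPM in mutant libraries 1, 2 and 3, the order used for all values below, and stood at rank 522. The mutant libraries were all below the wild-type ones, with a log2 fold change of -0.21 (SE 0.06, n = 3 per genotype) and an adjusted p of 0.0244 in edgeR's quasi-likelihood test with Benjamini-Hochberg adjustment over all genes; the call is lost in 4 of the 6 fits that leave out 1 library (wild-type library 1 or 3, or mutant library 2 or 3), where the adjusted p runs from 0.0530 to 0.0995. As the allele is not described, this level does not check the labels. The gene cdkn1a of the study's title lay outside the 198, at rank 13038, with 2.41, 1.87 and 1.85 in wild type and 2.0, 1.44 and 1.30 CPM in the mutant. These ranges overlapped, and its log2 fold change of -0.38 (SE 0.26) had an adjusted p of 0.296 by edgeR.

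The 198 genes together took 22.1, 21.6 and 22.5% of all counts in the wild-type libraries and 23.2, 23.1 and 22.7% in the mutant libraries. The means were 22.1% ± 0.435 and 23.0% ± 0.259 (SD, n = 3), and the genotypes did not overlap. Without the first-ranked gene, ENSDARG00000080337, the shares were 21.5% ± 0.424 and 22.2% ± 0.706, and they overlapped. Wild-type means ran from 5601 CPM at rank 1 to 520 CPM at rank 200. The last genes inside the list were ZAR1 at 524 CPM, a clone-named gene at 524 CPM and RPL3 at 520 CPM, and just outside it were MCM2 at 513 CPM and si:dkey-240e12.6 at 513 CPM. Gaps of this size are well within the spread between libraries. CPM is not divided by transcript length, so this order is one of reads and not of molecules, and levels of different genes are not compared further.

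**Figure D1:**
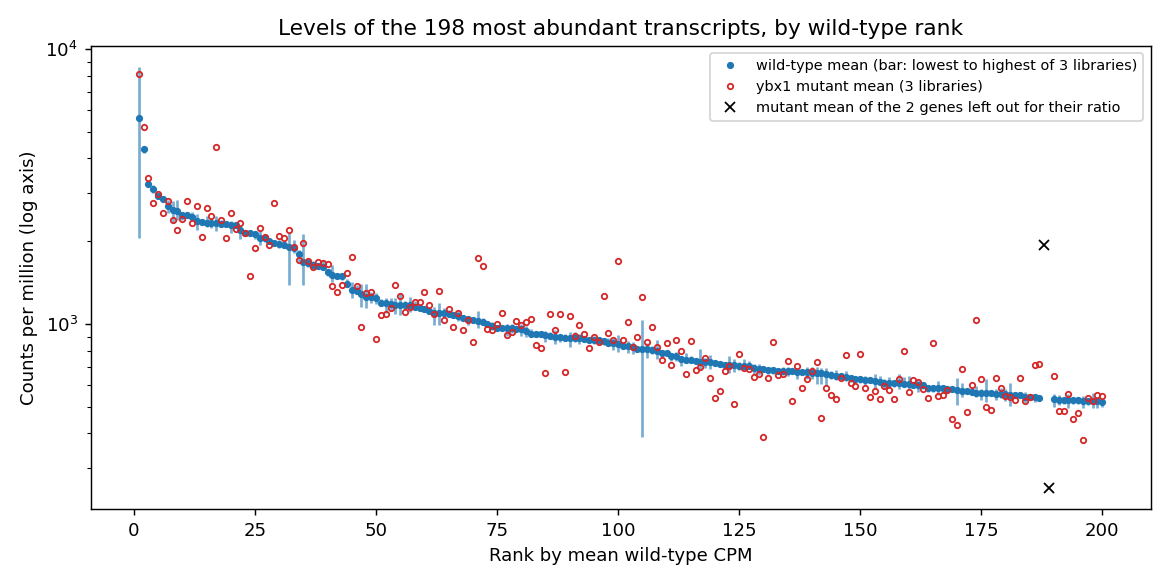
Mean CPM of each of the 198 genes (log axis) against its rank in wild type, with filled points for the wild-type mean, bars for the lowest to highest of 3 wild-type libraries, and open points for the mutant mean. The mutant means of the 2 genes left out by ratio (crosses) stand away from the wild-type points, and the gene at rank 1 has the widest bar, from 2057 to 8609 CPM.

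The choice of these genes bounds their ratio between genotypes, and the values are given within those bounds. The ratio of mean mutant to mean wild-type CPM lay between 0.9 and 1.1 for 117 of the 198 genes and within 25% either way (over 0.8 and under its inverse) for 169, with a median of 1.0 and a range from 0.569 to just under 2. It was above 1 for 101 genes and below 1 for 97. The ratio was part of the choice of these genes, so no test of it is given for them and nothing is read from their calls: 69 of the 198 (34.8%) passed edgeR's threshold, 37 higher and 32 lower, where 33.9% of all 17385 genes tested did, 18.6% higher and 15.3% lower. All 198 passed the filter on low counts. The CPM ranges of the genotypes did not overlap for 51 genes that were higher in the mutant and 52 that were lower, against 48.2% of all genes tested, 25.3% higher and 23.0% lower.

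The genes nearest to the ratio limits show how wide the list is. At the upper limit of 2 stood MT-CYB just under it, MT-CO1 with 1.89 and MT-ND4 with 1.85, all encoded by the mitochondrial genome. At the lower limit of 0.5 stood RRM2 with 0.569, si:ch211-226h8.14 with 0.687 and zgc:171474 with 0.699. In all, 6 genes had a ratio over 1.5 and 1 a ratio under 0.67.

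**Figure D2:**
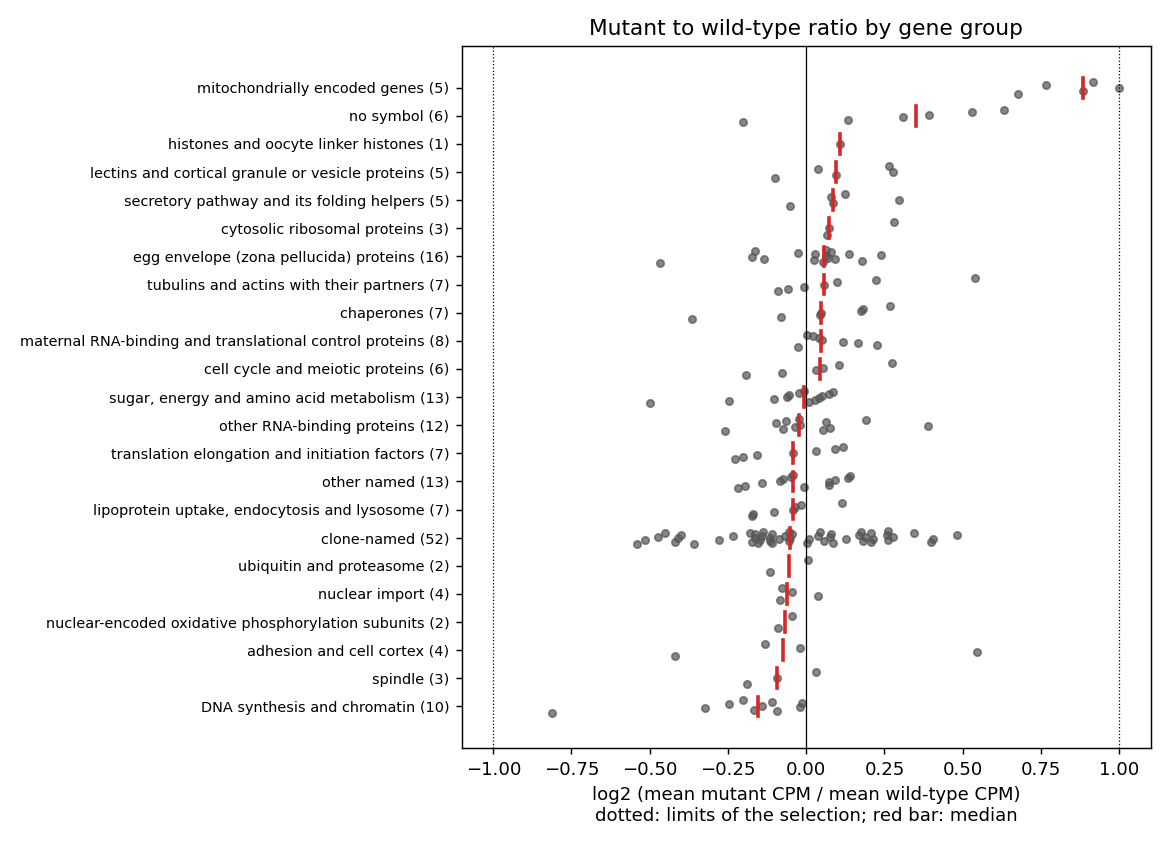
Each point is 1 of the 198 genes, placed by the log2 of its mean mutant CPM over its mean wild-type CPM (3 libraries each) and by gene group, with the number of genes in parentheses and a red bar at the group median. The 5 mitochondrially encoded genes sit apart at the right, all 10 genes of the DNA synthesis and chromatin group sit left of 0, and the 52 clone-named genes spread on both sides of it.

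Genes of the egg envelope made up 16 of the 198 and 6 of the first 20, and took 3.18% ± 0.124 of all counts in wild type and 3.23% ± 0.184 in the mutant (SD, n = 3). zpax1, a ZP domain gene at rank 3, had 3291, 3222 and 3187 in wild type and 3452, 3397 and 3324 CPM in the mutant, where all 3 values were higher. zp2.2 had 3201, 2985 and 3143 against 3017, 2661 and 2597 CPM, and zpax4 2968, 2869 and 2903 against 3081, 2919 and 2915 CPM; in both genes the ranges overlapped. The ratios of the 16 genes ran from 0.723 to 1.18, with a median of 1.04. Their ends were zpcx, with 742, 667 and 713 against 502, 496 and 536 CPM, and zp2.6, with 1243, 1090.1 and 1196 against 1549.5, 1323 and 1291 CPM, and neither overlapped.

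Members of the ZP2 family lay on both sides of 1. The ratio was 0.887 for zp2.2, 1.04 for zp2.1, 1.13 for zp2.3, 1.06 for zp2.5 and 1.05 for zp2l1. In the ZP3 family it was 0.893 for zp3, with mutant libraries below the wild-type ones, and 1.1 for zp3.2, with mutant libraries above them. The ratio was 0.910 for zp3b and 0.983 for zp3e, each with overlap. Of the 7 other ZP genes tested, 4 were called by edgeR (57.1%, beside 33.9% of all genes tested) and all 4 fell. zp3c fell from 444 ± 23.0 to 315 ± 14.7 CPM (SD, n = 3), a log2 fold change of -0.49 (SE 0.06, adjusted p = 0.000123 by edgeR). zp3d.2 fell by 0.23 (adjusted p = 0.00824), zp2l2 by 0.22 and zp3f.2 by 0.16 on the log2 scale (both adjusted p = 0.0285 by edgeR). The call of zp2l2 is lost without wild-type library 1 or mutant library 2 or 3 (adjusted p from 0.0810 to 0.108 by edgeR), and that of zp3f.2 in 5 of the 6 fits that leave out 1 library (0.0575 to 0.107), all but the fit without mutant library 1. Copies of these families are alike and the counting rule is not given in the sources used here, so reads may be divided between them.

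A large group of the list, 52 of the 198 genes (26.3%), carries only a clone or project name (symbols that begin with zgc, si, wu or zmp) and no assigned function in the tables used here. The share was 11 of the first 20 genes and 20 of the 200 genes at ranks 201 to 400 (10%), where 21.8% of all genes with a symbol have such names. They took 7.21% ± 0.107 of all counts in wild type and 7.20% ± 0.273 in the mutant. zgc:173556, at rank 2, had 4371, 4198 and 4452 in wild type and 5438, 5102 and 5056 CPM in the mutant, a ratio of 1.20 with all mutant libraries higher. si:dkey-46g23.3 had 2804, 2909.9 and 2807 against 2600.4, 2559.9 and 2442 CPM, with all mutant libraries lower. zgc:111868 had the ratio 1.40, with 1979, 1959 and 1983 against 2899, 2740.5 and 2633 CPM, and its libraries did not overlap. At the other end, si:ch211-226h8.14 had 694, 607 and 692 against 506, 429.8 and 433 CPM. The symbol zgc:173545 belongs to 2 of these genes. ENSDARG00000092026 had 548, 493 and 535 against 393, 385 and 357 CPM (ratio 0.720), and ENSDARG00000079534 had 667, 676 and 676 against 528, 549 and 499 CPM (ratio 0.780), and in each the mutant libraries were lower.

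Some of the 198 genes lie side by side. Of the 198, 167 (84.3%) could be placed in the order of protein-coding RefSeq genes of assembly GRCz12tu. Of these, 28 (16.8%) have another gene of the list as the next gene. At ranks 201 to 400, 6 of the 175 placed genes (3.43%) have another gene of those ranks as the next gene. Within 3 genes of another of the same set, the shares were 22.8% and 5.14%. Genes of the list each at most 3 places from the next in this order formed 12 runs. The longest holds 7 clone-named genes (zgc:171977, zgc:152652, si:ch211-146l10.7, zgc:171750, zgc:171474, zgc:173856 and si:ch211-146l10.8), and their ratios lay between 0.699 and 0.969, all under 1. Within that run zgc:171474 had 2129.7, 2154 and 2138 in wild type and 1449, 1426 and 1616 CPM in the mutant, while zgc:171977 had 2388, 2529.5 and 2554 and 2489, 2432 and 2319 CPM. The first did not overlap between genotypes and the second did. The next run holds zp2.2, zp2.3, si:zfos-1505d6.3, zp2.6, zp2.1 and zp2.5, with ratios from 0.887 to 1.18. Another joins zgc:173556 with zp3 and zp3.2. Neighbouring copies can share reads, so ratios within a run are not independent of each other.

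**Figure D3:**
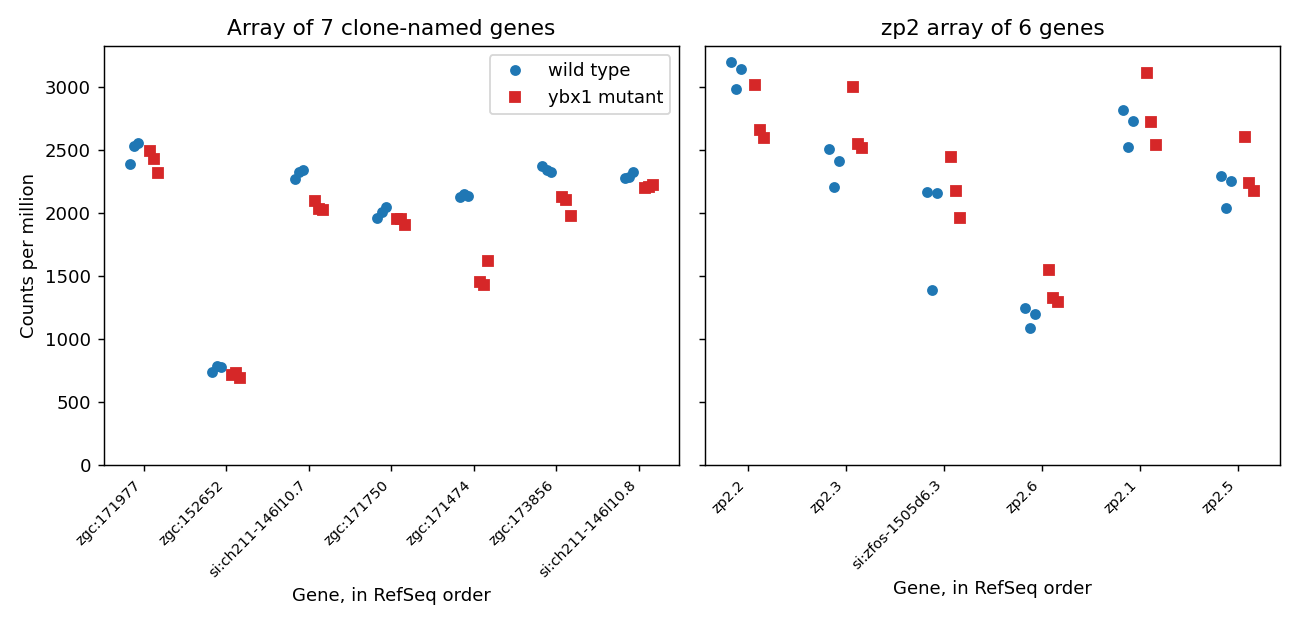
CPM (linear axis) in each library for the 2 longest runs of neighbouring genes, with circles for wild type and squares for the ybx1 mutant, 3 libraries each. In the run of 7 clone-named genes the mutant mean lies below the wild-type mean for each gene, furthest for zgc:171474 (1497 against 2141 CPM on average), while the zp2 run has genes on either side and a low wild-type library 2 for si:zfos-1505d6.3.

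Several RNA-binding proteins that store and control maternal RNA were close to 1. buc, which organises the Balbiani body of the zebrafish oocyte, had 982, 961 and 967 in wild type and 999.9, 975 and 1020.3 CPM in the mutant. ZAR1, an oocyte RNA-binding protein, had 516, 494 and 561 against 537, 528 and 509.8 CPM, and its relative ZAR1L had 699, 645 and 678 against 769, 707 and 718 CPM. buc and ZAR1 overlapped between genotypes, and ZAR1L was higher in every mutant library. CPEB1, which controls the poly(A) tails of stored mRNA, had the ratio 0.957, and the poly(A)-binding protein pabpc1a 0.981, both with overlap. Larger differences were seen in cth1, a zinc-finger protein gene, with 549, 522 and 557 against 786, 691 and 654 CPM (ratio 1.31), and in caprin2, an RNA-binding protein gene, with 1024, 1025 and 1041 against 853, 882 and 848 CPM (ratio 0.836). The genotypes did not overlap in either. The 8 members of the list of maternal RNA-binding and translational control genes had ratios from 0.981 to 1.17, above 1 in 7 of them. Every mutant library was higher in 3 of the 8 (25.3% of all genes tested) and lower in 0 (23.0%). Of the 66 other genes of that list tested, 16 were called by edgeR, 7 higher and 9 lower, which is 24.2% beside 33.9% of all genes. The largest called changes with a mean of at least 5 CPM over the 6 libraries were those of TDRD7 (log2 fold change -0.69) and cnot6b (-0.68), which fell, and HNRNPK (1.18) and pabpc1b (0.45), which rose. Their wild-type means were 7.05, 80.8, 4.15 and 11.3 CPM. Without mutant library 2, 4 in place of 9 were called lower.

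The translation machinery was represented by 7 elongation and initiation factors and 3 ribosomal protein genes (RACK1 counted with them). The elongation factor eef1a1l1 had 2178, 1945 and 2053 in wild type and 2385, 2185 and 2124 CPM in the mutant, and eef2b had 1959.7, 1888 and 2018 and 2222, 2105 and 1931 CPM, with overlap in both. Initiation factors lay below 1: EIF4G1, the scaffold of cap-dependent initiation, had the ratio 0.854, the helicase eif4a1a 0.869 and EIF3A 0.896, and in each the mutant libraries were all lower. EIF4G2 (ENSDARG00000020377) had the ratio 0.971, with overlap. Another gene of that symbol, ENSDARG00000057167, lies outside the list at rank 206. It had 499, 525 and 508 against 402, 415 and 416 CPM (ratio 0.805), lower in every mutant library. Summed, the 2 genes gave 1109 ± 24.0 CPM for wild type against 993 ± 22.8 CPM for the mutant (SD, n = 3). RPS2 had 554, 499 and 541 against 695, 629 and 612 CPM, higher in every mutant library, whereas RPL3 and RACK1 (ratio 1.05 for both) overlapped. Among the other genes of these lists, 19 of 74 translation factors (25.7%) were called by edgeR, beside 33.9% of all genes tested. Of these, 7 were higher and 12 lower, with 7 lower without wild-type library 3. EEF2K (wild-type mean 3.63 CPM) and eif4ba (55.6 CPM) led upward, and eef2a.2 (9.59 CPM) and EIF2B5 (90.9 CPM) downward. In the ribosomal protein list, 3 of 84 genes (3.57%) were called by edgeR (RPSA2 and RPL8 higher, faub lower), and 1 to 8 of them are called under other settings. Both calls upward are lost without wild-type library 2 or 3 or mutant library 1, and that of RPL8 also without mutant library 2 and in 3 of 7 other settings, with adjusted p from 0.0633 to 0.11 for RPSA2 and from 0.0987 to 0.174 for RPL8 by edgeR without 1 library.

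Genes grouped here under DNA synthesis and chromatin were all below 1, while the linker histone h1m, listed with the histones, had a ratio of 1.08. The ratios of the 10 members of this group, which was put together after the members were known, ran from 0.569 to 0.991. RRM1, the large subunit of ribonucleotide reductase, the enzyme that makes deoxyribonucleotides, had 718, 714 and 719 in wild type and 567, 573 and 576 CPM in the mutant. The small subunit gene RRM2 (ENSDARG00000078069) had 686, 672 and 691 against 387, 384 and 396 CPM, the lowest ratio of the 198. DNMT1, which copies DNA methylation, had 1471, 1521 and 1506 against 1263, 1316 and 1331 CPM. The mutant libraries were below the wild-type ones in all 3 genes, and also in slbp2, for a histone mRNA-binding protein of the oocyte (ratio 0.843), CAD, for pyrimidine synthesis (0.927), and RCC1, for the Ran exchange factor (0.907). NASP and NAP1L1, both histone chaperones, had 0.987 and 0.938, and RIF1 0.991, with overlap.

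A second gene with the symbol RRM2, ENSDARG00000020711, lies outside the list at rank 247. It had 451, 465 and 479 in wild type and 761, 711 and 749 CPM in the mutant and rose by a log2 fold change of 0.67 (SE 0.05, adjusted p = 7.31e-06 by edgeR). The sum of both was 1148 ± 19.4 CPM against 1129 ± 30.4 CPM (SD, n = 3), a difference within the spread between libraries. This pair was singled out after its values were seen, and whether reads are divided between the copies was not tested.

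Cyclins and mitotic regulators followed no single direction. CCNB1, a B-type cyclin that drives entry into M phase, had 896, 950.4 and 983 in wild type and 1025, 1019 and 1001 CPM in the mutant, and CCNA1, the germ cell A-type cyclin of vertebrates, had 832, 774 and 809 against 1025, 948 and 945 CPM. Both were higher in every mutant library. CCNA2 had the ratio 0.949 and GMNN, an inhibitor of replication licensing, 0.874, both lower in every mutant library. The kinase plk1 (1.02) and CCNB2 (1.04) overlapped. Among 81 other genes of this list tested, 23 were called by edgeR (28.4%, beside 33.9% of all genes tested), 10 higher and 13 lower, but 14 without mutant library 2, with 7 or 8 lower calls without that library or without wild-type library 1 or 3. ANAPC5 and CDK6 led upward (log2 fold changes 0.82 and 1.17, from wild-type means of 45.9 and 3.19 CPM), and MCM8 and CDK4 downward (-0.68 and -0.52, from 42.0 and 12.2 CPM). The call of CDK4 is lost without library 1 or 2 of either genotype (adjusted p from 0.0512 to 0.0615 by edgeR). Spindle genes gave 0.877 for TPX2, without overlap, 0.938 for CKAP5 and 1.02 for hmmr. The importins kpna7, IPO5, KPNA2 and KPNB1, which carry proteins into the nucleus, had ratios from 0.944 to 1.03 and overlapped in all 4. The oocyte linker histone h1m had 1154, 1081 and 1292 against 1189, 1268 and 1347 CPM, with overlap, and 8 of 27 other histone genes (29.6%) were called by edgeR, 6 higher and 2 lower.

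The chaperones and folding helpers of the list, drawn from a symbol list and from a group put together after the members were known, lay on both sides of 1. HSPA5, the main Hsp70 chaperone of the endoplasmic reticulum, had 2301, 2244 and 2468 in wild type and 2647, 2666 and 2636 CPM in the mutant, and HYOU1, another chaperone there, had 781, 836 and 868 against 979.8, 1036 and 1038 CPM. PDIA4, a disulfide isomerase, had 910.1, 899.9 and 958 against 982, 1052 and 1092 CPM. Every mutant library was above every wild-type one in these 3 genes, as also in calr3a, a calreticulin (1.20), and in P4HB, another isomerase (1.09). HSP90B1 (1.03), XBP1, a transcription factor of the unfolded protein response (1.06), and the translocon subunit SEC61A1 (ENSDARG00000005675, 0.965) overlapped. A second gene with the symbol SEC61A1, ENSDARG00000021669, lies outside the list at rank 304. It had 388, 403 and 397 against 448, 423 and 415 CPM (ratio 1.08), higher in every mutant library. HSPA9, the mitochondrial Hsp70, had 578, 580.2 and 575 against 425, 445 and 477 CPM and was lower in every mutant library. The cytosolic HSPA8 (1.03) and HSP90AB1 (0.947) overlapped.

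Outside the 198, the chaperone list had 44 of 110 genes called by edgeR (40%, beside 33.9% of all genes tested), 24 higher and 20 lower. Its largest fall was that of PDIA6, also a disulfide isomerase of the endoplasmic reticulum, from 413, 405 and 401 to 138, 142 and 147 CPM (log2 fold change -1.51, SE 0.05, adjusted p = 3.66e-08 by edgeR), followed by DNAJC10 (-0.64). The largest rises were those of hsp70l (1.98, from 2.92 to 11.6 CPM on average) and of a second gene with the symbol HSPA8 (ENSDARG00000037403, 1.54), which had 4.58 ± 0.686 and 13.2 ± 0.434 CPM. The mutant to wild-type ratio was 0.351 for PDIA6, beside 1.13 for PDIA4 and 1.09 for P4HB.

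Copies of the same cytoskeletal protein differed in their values. The actin genes were actb1, with 2132, 1390.4 and 1533 in wild type and 1747, 2199.5 and 1947 CPM in the mutant, and actb2, with 889.9, 842 and 866 and 1316, 1253 and 1209 CPM. The first overlapped between genotypes and varied between wild-type libraries, and the second was higher in every mutant library, by a ratio of 1.45. The tubulins tubb4b (1.07), tuba4l (1.04) and tuba8l4 (0.961) overlapped, as did profilin pfn2b and cofilin CFL1. Among tubulin, actin and partner genes outside the list with a mean of at least 5 CPM, the 2 largest called rises were those of tubb5 and tuba1b, both tubulin genes. tubb5 had 12.2, 14.2 and 12.9 against 66.8, 65.2 and 67.8 CPM (log2 fold change 2.36, SE 0.07, adjusted p = 3.66e-08 by edgeR), and tuba1b had 22.2, 21.6 and 21.9 against 54.8, 52.5 and 53.8 CPM (1.30, SE 0.06, adjusted p = 5.37e-07). In all, 25 of 65 other tubulin, actin and partner genes were called by edgeR (38.5%, beside 33.9% of all genes tested), 18 higher and 7 lower, with 40 not called, and the lower ones were led by STMN4 (-0.90) and STMN1 (-0.34) and numbered 4 without wild-type library 1 or mutant library 2. The summed markers of follicle cells and of vessels were higher in the mutant, though not in every single marker of follicle cells, and their part in these rises was not tested. By symbol this gene list also takes in keratins. Of these, krt8 (91.1 to 118 CPM on average) and krt18a.1 (18.8 to 35.6 CPM) are follicle cell markers as well, so the list and that sum are not independent.

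Among genes of adhesion and the cell cortex, 2 stood apart in opposite directions. epcam, an epithelial adhesion molecule, had 598, 563 and 590.2 in wild type and 887, 836 and 833 CPM in the mutant (ratio 1.46), and every mutant library was higher. ctnnb2, the maternal beta-catenin needed for the dorsal axis of the zebrafish embryo, had 729, 707 and 719 against 577, 537 and 497 CPM (ratio 0.747), and every mutant library was lower. The cytoplasmic myosin MYH9 (0.913) and filamin flna (0.987) overlapped. The claudins cldnd and cldng, proteins of cell junctions, were higher in every mutant library, with ratios of 1.20 and 1.21.

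The largest common shift among the 198 was that of the 5 mitochondrially encoded genes. MT-CO1, a catalytic subunit of cytochrome c oxidase, had 2462, 2323 and 2186 in wild type and 4467, 4463 and 4236 CPM in the mutant. MT-CYB, the cytochrome b of complex III, had 908, 833 and 793 against 1690.3, 1746 and 1630.5 CPM. MT-ND4, a complex I subunit, had 596, 544 and 546 against 1088, 1064 and 959.9 CPM. Every mutant library stood above every wild-type one in these genes, and the same held for MT-CO3, with 1109.9, 996 and 968 against 1861, 1814 and 1553 CPM, and MT-CO2, with 1053, 993 and 1005 against 1599, 1639 and 1634 CPM. These are the 5 highest ratios of the list, from 1.60 for MT-CO2 to just under 2 for MT-CYB.

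The 8 other genes with mitochondrial symbols, which are not in the list and which the rule therefore did not choose, were all called by edgeR, beside 33.9% of all genes tested, and all rose. MT-ND1 had 368, 328 and 323 in wild type and 767, 766 and 723 CPM in the mutant, a log2 fold change of 1.15 (SE 0.06, adjusted p = 8.84e-07 by edgeR). MT-ND5 had 424, 468 and 425 against 851, 1013 and 1011 CPM (1.13, SE 0.07, adjusted p = 3.01e-06), and MT-ND2 269, 258 and 269.7 against 568, 568 and 490.1 CPM (1.03, SE 0.07, adjusted p = 2.71e-06). The largest log2 fold change was 1.40 (SE 0.14, adjusted p = 4.41e-05) for MT-ATP6 and the smallest 0.82 (SE 0.06, adjusted p = 4.71e-06) for MT-ND3. mt-atp8, mt-nd4l and MT-ND6 rose by 1.15, 1.0 and 1.01 (adjusted p from 8.89e-07 to 7.95e-06 by edgeR). All 8 were called in every other fit run. All 13 genes took 0.731% ± 0.0346 of counts in wild type and 1.38% ± 0.0505 in the mutant (SD, n = 3). Genes of the mitochondrial genome are transcribed together and lie next to each other, and mt-atp8 overlaps MT-ATP6, so they are not independent of each other.

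**Figure D4:**
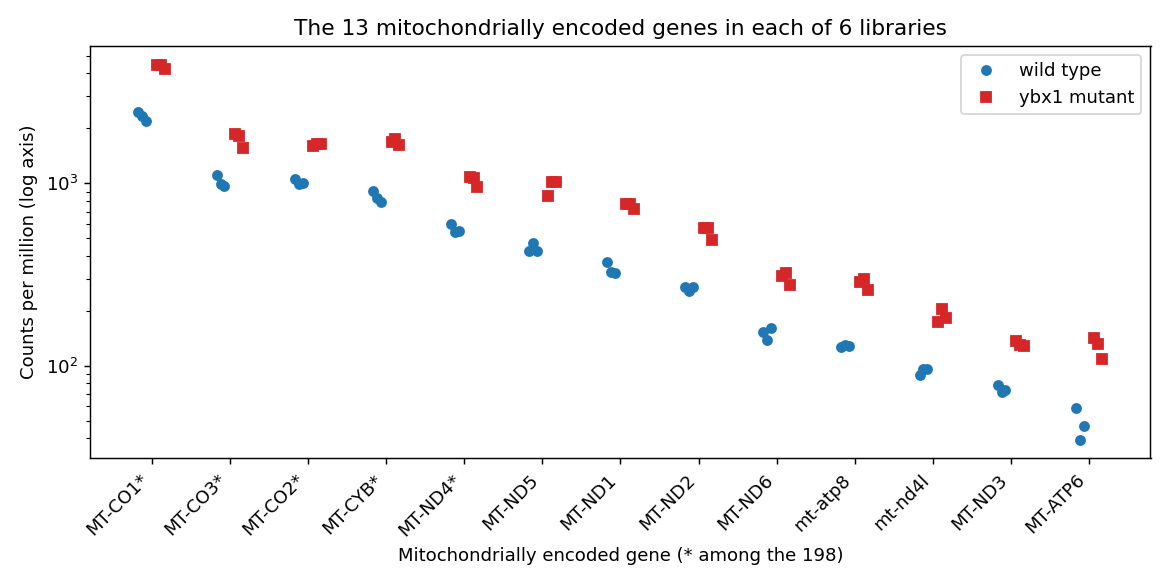
CPM (log axis) of the 13 mitochondrially encoded genes known by symbol in each of the 6 libraries, ordered by wild-type mean, with circles for wild type, squares for the ybx1 mutant and asterisks for the 5 genes in the list. In all 13 genes the 3 squares lie above the 3 circles, from MT-CO1 (4388 against 2324 CPM on average) to MT-ATP6 (127 against 48.1 CPM).

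The 2 nuclear genes for subunits of oxidative phosphorylation in the list, both of ATP synthase, lay near a ratio of 1. ATP5F1B, a catalytic subunit of ATP synthase, had 1238, 1116 and 1185 in wild type and 1237, 1127 and 1064 CPM in the mutant, and ATP5F1A had 1214, 1129.7 and 1173 against 1170.2, 1108 and 1024 CPM, with overlap in both. Of the 101 other nuclear genes of oxidative phosphorylation tested, 17 were called by edgeR (16.8%, beside 33.9% of all genes tested), 7 higher and 10 lower, or 10 genes in all without wild-type library 3 or mutant library 3. The median log2 fold change of the 101 was -0.03, beside 0.01 for all genes tested and 1.08 for the 8 mitochondrial ones. The largest changes were 0.55 for ndufv3 and 0.45 for NDUFS6 upward and -0.47 for NDUFAF2 and -0.42 for NDUFB6 downward. Without the 13 genes with mitochondrial symbols in either the list or the total, the share of counts taken by the list was 21.7% ± 0.447 in wild type and 22.3% ± 0.232 in the mutant, and the genotypes overlapped. Genes without a symbol, ENSDARG00000080337 among them, could not be sorted in this way and were kept.

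Enzymes of metabolism held a narrow band around 1 apart from 2 related genes. retsatl, a relative of retinol saturase, had 2076, 1983 and 2093 in wild type and 2136, 2009 and 2051 CPM in the mutant, and GAPDH, a glycolytic enzyme, 1150.2, 992 and 1145 against 1161, 1059 and 1049 CPM, with overlap in both. The ratio was 1.03 for GYG1, which primes glycogen, 1.05 for the enolase ENO3 and 1.04 for lactate dehydrogenase LDHB. Lower was QDPR, which regenerates tetrahydrobiopterin, with 1301, 1185 and 1245 against 918, 875 and 847 CPM (ratio 0.708). Its relative qdprb.4 had 673, 628 and 661 against 564, 559 and 530.3 CPM (ratio 0.843). In both the mutant libraries were all lower.

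Receptors and lysosomal genes that serve lipoprotein and yolk uptake had ratios from 0.887 to 1.08. lrp13, a large lipoprotein receptor, had 1536, 1447 and 1497 in wild type and 1439, 1401 and 1333 CPM in the mutant, and dab2, an adaptor of receptor endocytosis, 727, 781 and 718 against 677, 655 and 643 CPM, both lower in every mutant library. VLDLR, a receptor of the family that takes up vitellogenin in oocytes, had 529, 632 and 519 against 521, 504 and 467 CPM, with overlap. The clathrin heavy chain cltca (0.988), SCARB1 (0.976), LAMP2 (0.971) and PSAP (1.08) also overlapped. The cathepsins CTSB, ctss2.1 and ctsla, lysosomal proteases, had 0.933, 1.03 and 1.07, with CTSB lower and ctsla higher in every mutant library. In the list of lectins and of cortical granule or vesicle proteins, which also holds cathepsins and claudins by symbol, 32 of 69 other genes were called by edgeR (46.4%, beside 33.9% of all genes tested), 23 higher and 9 lower, with 4 or 5 lower without any 1 wild-type library or mutant library 3. The largest rises were those of ANXA2 (1.31) and cd99 (1.26), from wild-type means of 3.70 and 4.12 CPM, and the largest falls those of CTSO (-0.60) and LGALS8 (-0.52), from 10.3 and 6.15 CPM. LGALS8 was not called by DESeq2 or without wild-type library 1 or 2 or mutant library 1 or 3 (adjusted p from 0.0562 to 0.119 by edgeR).

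Of the remaining lists, ubiquitin and proteasome genes had 2 members, ubc (1.0) and UCHL1 (0.922), both with overlap. Among the 341 others, 86 were called by edgeR (25.2%, beside 33.9% of all genes tested), 41 higher and 45 lower (28 lower without mutant library 2). The largest rises were those of fbxo44.8 (1.82) and TRIM9 (1.73), from wild-type means of 2.92 and 6.47 CPM, and the largest falls those of trim35-27 (-1.08) and fbxo15 (-0.70), from 26.2 and 23.3 CPM. No gene of the lists of oocyte-secreted factors and receptors or of 14-3-3 proteins is among the 198. In the former, 1 of 13 tested genes (7.69%) was called by edgeR (2 under 4 other settings, wild-type library 3 or mutant library 1 left out among them), SYCP1, which rose by 1.19 and is known as a protein of the synaptonemal complex. In the latter, 2 of 10 (20%) were called, ywhaqb (0.25) higher and YWHAH (-0.20) lower, and the call of ywhaqb is lost without mutant library 3 (adjusted p = 0.0535 by edgeR).

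Libraries of the same genotype resembled each other closely for these genes. The coefficient of variation (CV, SD as a percentage of the mean) had a median of 3.83% among wild-type libraries and 4.40% among mutant libraries, and 191 and 187 of the 198 genes had a CV under 10%. For the genes at ranks 201 to 400 the medians were 4.24% and 4.31%. The gene at rank 1, ENSDARG00000080337, carries no symbol in the tables used here and varied most, with 2057, 6139 and 8609 in wild type and 2317, 10220.4 and 11726 CPM in the mutant. Library 1 was the lowest in both genotypes and library 3 the highest, and the ranges overlapped. ENSDARG00000105712 had 1006, 1035 and 387 against 1311, 1278 and 1175 CPM, so that its ratio of 1.55 rests in part on the low wild-type library 3. si:zfos-1505d6.3 had 2165, 1389 and 2155 against 2447, 2177 and 1963 CPM, with wild-type library 2 low, and overlapped. In the mutant, si:ch73-160p18.3 was uneven, with 2751, 2336 and 1498 CPM against 2523, 2387 and 2831 CPM in wild type.

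**Figure D5:**
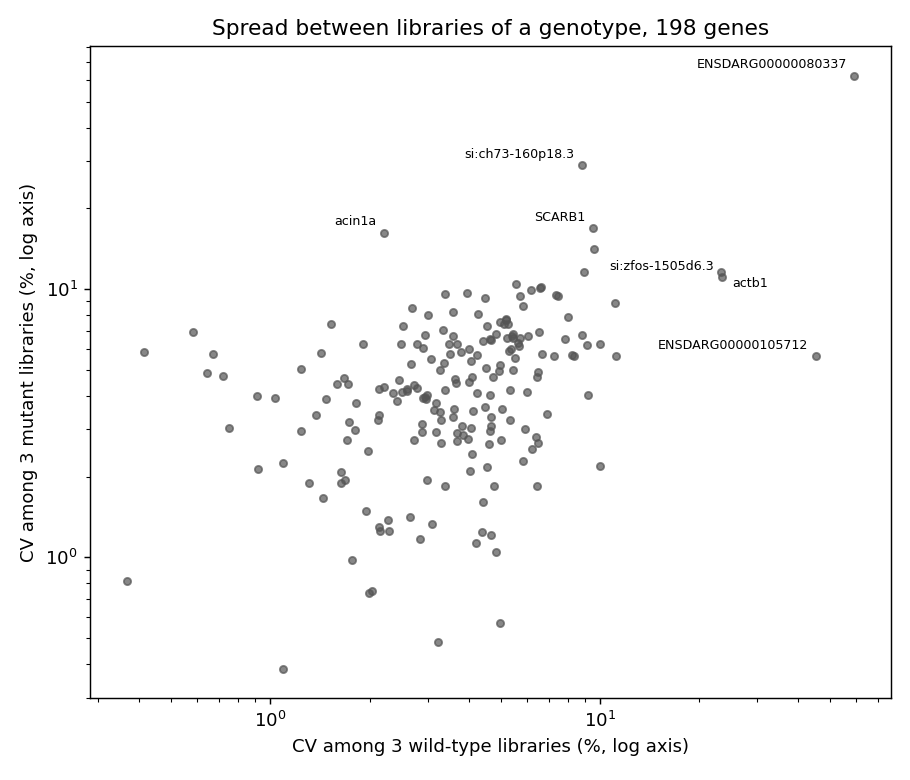
CV among the 3 mutant libraries against CV among the 3 wild-type libraries (both in percent, log axes), 1 point per gene of the 198. Most points lie under 10% on both axes, and ENSDARG00000080337 lies furthest out at 59.1% in wild type and 62.5% in the mutant.

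Libraries of different genotypes shared fewer of their top 200 genes than libraries of the same genotype. The shared number was 174 to 182 of 200 in each pair across genotypes and 186 to 194 in each pair within one, before any limit on the ratio. Of the 198 genes, whose ratio was limited by their choice, 179 were also among the 200 highest in the mutant by mean CPM, 19 ranked below 200 there, and 197 lay within the first 300. The genes furthest down in the mutant were zgc:173545 (ENSDARG00000092026), from rank 196 to 311, RRM2, from 130 to 299, and si:ch211-12h2.8, from 170 to 262. These ranks follow from the ratios that chose the genes and are given as a description.

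The authors' normalization treated some of these genes on their own. The deposited normalized values are the counts divided by a factor, and for 126 of the 198 genes (63.6%), against 58.5% of 13481 genes (those read in all 6 libraries whose counts averaged 50 or more), that factor differed from the common factor of its library by more than 0.0001 on the log2 scale. It departed by over 10% in 12 of them. In a limma test of the gene-specific part of the factor, which the choice of the genes did not use, 3 of the 126 (2.38%) differed between genotypes at an adjusted p under 0.05, where 0.634% of the 7891 genes tested did. In size the differences of the 126 were smaller, with a median absolute value of 0.0053 on the log2 scale against 0.0149 for all genes tested. For si:zfos-1505d6.3 the factor was lower in all 3 mutant libraries by 0.16 on the log2 scale (SE 0.0028, adjusted p = 0.000268 by limma). For crp2 it was lower by 0.20 (SE 0.0048, adjusted p = 0.000924 by limma), and for zgc:152652 higher by 0.10 (SE 0.0058, adjusted p = 0.00969 by limma), again in 3 of 3 mutant libraries. All 3 calls are lost in a fit with the replicate number as a block (adjusted p = 0.103, 0.103 and 0.199), and the call of zgc:152652 also without mutant library 1 (0.0513) or 3 (0.0536).

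These factors matter most for a few genes. With them as offsets in edgeR, the log2 fold change of ENO3 was 0.41 in place of 0.08 and that of GAPDH 0.22 in place of -0.00, and HSPA8 was at -0.04 in place of 0.05. No p is given for these genes, as above. The CPM values in the text do not use the factors.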

How the data were processed

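The deposited tables hold 32057 Ensembl gene identifiers in 6 libraries. The first holds whole-number counts, without normalization, as deposited. The second holds the authors' DESeq2-normalized values, treated here as a signal on a linear scale, each being a deposited count over a factor that belongs to the library or to the gene and library. The submitters' processing notes name bcl2fastq, FastQC 0.11.5, HISAT2, StringTie, DESeq2 and the build GRCz11. The annotation release and the counting options are not given in the sources used here.

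Gene symbols were matched to 28988 genes and 192 of the 198 from a table of Ensembl names, and gene order was taken from RefSeq's table for GRCz12tu. CPM was each count divided by its library's total, times 1000000. Genes were tested with edgeR 4.0.16 (R 4.3.3; quasi-likelihood test, TMM factors from 0.992 to 1.01, filterByExpr at its minimum count, 10, and minimum total, 15, genotype as the only term), with Benjamini-Hochberg adjustment over all genes tested and a threshold of 0.05. The factors were tested with limma 3.58.1. Both were tested on simulated data. p-values measure only the spread between these libraries, as no label says that they came from separate fish. Other settings were library size alone, DESeq2 size factors, DESeq2 1.42.0, limma-voom, no count filter, the deposited factors as offsets, a replicate block, and leaving out each library.

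The members and gene lists were chosen with earlier results of these data known. The plan was to name the 20 members with the highest level and the 4 highest of each of 14 role lists. Not all of these genes are described. Also planned and named were the 5 highest and 5 lowest ratios, the 3 most variable, and those next to the limits. Other members were named after their values were seen. Non-members named are the 2 largest called changes in each direction of each list with a mean of at least 5 CPM, and all mitochondrial and ZP genes or those named for a pair. The role lists are matched by symbol pattern. After the symbols were seen, h1m was moved to the histones, and ribosomal S6 kinases and zpld genes were dropped. Groups outside those lists (DNA synthesis, adhesion, uptake, nuclear import, spindle, secretory helpers, metabolism and other RNA-binding proteins) were put together after the members were known.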

Additional observations from a re-analysis of the deposited data

How the results depend on the processing

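The rule gave 197 or 198 genes when 1 library was left out. Of these, 194 were among the 198 without wild-type library 1 or 2, and 197 or 198 without any other library. The rule gave 198 with the deposited normalized values (all shared), 197 with TMM-scaled CPM and 191 with ratio limits of 1.5. It gave 293 for the top 300 and, by construction, 100 for the top 100. The share of counts held ran from 21.9 to 22.3% in wild type and from 22.9 to 23.1% in the mutant when 1 library was left out. It was 22.3% in the mutant without the genes with mitochondrial symbols, and 21.5% and 22.2% without ENSDARG00000080337, a setting chosen after seeing the data. Calls numbered 5315 to 6110 over all genes and 63 to 84 among the 198 under the other tools and scalings. Without 1 library they numbered 4489 to 5326 (2545 to 2921 higher and 1944 to 2421 lower) and, among the 198, 51 to 70 (27 to 38 higher and 24 to 37 lower). The replicate numbers are shared between genotypes without a stated pairing. Same-numbered libraries deviated together with correlations of 0.10, 0.03 and 0.14, a mean of 0.09. Deviations were taken from the genotype mean, so the mean of -0.05 for differently numbered libraries largely follows from 0.09 and is no separate baseline. As no pairing is stated, the numbers were not taken as pairs in the main fits. Whether same-numbered libraries share a source of variation was not tested. With the replicate block edgeR called 6110 genes and 79 of the 198, and the factor test called 0 genes in place of 50 (0 higher and 0 lower). At a minimum mean count of 200, 20 factors were lower in the mutant. Without 1 library the factor test called 25 to 51 genes, 8 to 23 higher and 14 to 32 lower. The log2 fold change of zp3d.1, which was not called (-0.04), ran from -0.0846 to 0.0121 without 1 library, 0.0121 being the value without mutant replicate 1. The cause of these changes was not tested. Ranking by CPM per kilobase of coding length was not run, as no lengths were at hand. Of 2574 comparisons of a member's log2 fold change with another setting, 23 moved by more than the spread between libraries. Leaving out 1 library shifts a genotype mean by less than this spread by construction, so those comparisons could hardly move. The number is therefore no measure of stability. With 3 libraries a genotype, the number of libraries limits the precision of each mean.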

Other observations

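The 200 highest genes of the mutant include 21 that are not among the 198 described. The highest was ENSDARG00000117285, with 33.0, 608 and 683 CPM in wild type and 2345, 2298 and 2216 CPM in the mutant, without overlap and with wild-type library 1 far below the others. It has no symbol in the tables used here. The 2 genes with the symbol MFAP4, a microfibril-associated protein, followed at mutant means of 1929 CPM (ENSDARG00000116066, ratio 3.59) and 1127 CPM (ENSDARG00000111491, ratio 2.74). MT-ND5, MT-ND1 and MT-ND2 entered with ratios of 2.18, 2.21 and 2.04, and the clone-named si:dkey-241l7.4 with a ratio of 2.90, while the 3 genes of the same clone in the list had 0.758 (si:dkey-241l7.2), 1.01 (si:dkey-241l7.5) and 1.04 (si:dkey-241l7.6). CCNG1, a cyclin gene, had 449, 441 and 440.4 CPM in wild type and 604, 569.5 and 577 CPM in the mutant. These genes were picked by their mutant level, so the values are a description.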
